A study of Mus musculus with 6 samples.

Results

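Genes that mark the priming of blood progenitors towards the lymphoid lineages were followed in MN1-transformed mouse myeloid progenitors with and without Dot1l. The 10 genes, Rag1, Rag2, Dntt, Il7r, Igll1, Ebf1, Cd79a, Cd79b, Thy1 and Cd28, were chosen by symbol, and each matched 1 row of the 31626 rows in the deposited tables. The cells were common myeloid progenitors of the C57Bl/6 strain, homozygous for a floxed Dot1l allele and transformed with MSCV-MN1-IRES-GFP, a retrovirus that carries the leukaemia oncogene MN1 together with GFP. The control group (3 libraries, Dot1l flox/flox) had received a control transduction, and the Dot1l-deleted group (3 libraries, Dot1l -/-) a transduction with cre. The promoter that drives cre, and whether a group came from 1 clone or a pool, are not given in the labels. Cells of both groups grew in M3234 with FBS, IL3, IL6 and SCF, were sorted at day 7 and carried the MN1 virus, so neither group holds untransformed progenitors. No library had Cre with an intact Dot1l gene, so an effect of Cre and one of the deletion cannot be told apart. The labels do not say whether replicates came from separate mice or cultures, and p-values then measure only the spread between these libraries, which may be technical.

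Before lymphoid and myeloid progenitors separate, early blood progenitors can transcribe lymphoid genes at a low level, which is called lymphoid priming. RAG1 and RAG2 form the recombinase that cuts antigen receptor genes, and terminal deoxynucleotidyl transferase, the product of Dntt, adds bases at the cut ends. The interleukin 7 receptor carries the growth signal of early lymphoid cells, and EBF1 is a transcription factor that commits cells to the B lineage. IGLL1 (lambda 5) is part of the surrogate light chain of the pre-B cell receptor, which signals through CD79A and CD79B. THY1 and CD28 are surface proteins best known from T cells, and THY1 is also found on mouse blood stem and progenitor cells.

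Values are FPKM, a fragment count scaled by gene length and library depth, so levels can be compared between genes. Dot1l was at 20.2, 22.6 and 19.6 FPKM in the controls and at 8.24, 8.17 and 5.80 FPKM after deletion, lower in all 3 deleted libraries (limma, log2 fold change -1.39 with an SE of 0.157 and an adjusted p = 0.000124). The third Dot1l-deleted library stood apart, with 39.0% of its summed FPKM in its 10 highest rows, against 6.59% to 10.8% in the other 5 libraries. With it, the median log2 fold change of the 11924 tested genes was -0.16, which median-of-ratios scaling brought to 0.0011. Myeloid progenitor markers were abundant in every library, among them Mpo at 529 to 638 FPKM in controls and 1754 to 2609 FPKM after deletion, and Cd34 at 738 to 765 and 100.5 to 143 FPKM. Of 7 B cell markers 4 were listed at 0 in all 6 libraries, Ms4a1, Cd22 and Igk-C among them, but Igh-6 was at 20.4 to 62.6 FPKM. Of 6 T and NK cell markers 2 were at 0, Cd3g and Ncr1, and Lck was at 3.33 to 5.16 FPKM. In such bulk samples, fewer cells of a type and less RNA per cell cannot be told apart.

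The 10 genes did not move as a block. Thy1, Rag2 and Cd28 fell after deletion of Dot1l, and Cd79b rose. These 4 were the members with a mean of at least 1 FPKM over the 6 libraries, the filter of the test, and the genes Rag2 and Cd28 passed that filter through their control libraries, since both were below 1 FPKM on average after deletion. In the same fit 19.7% of all tested genes were called at an adjusted p under 0.05, 7.43% higher and 12.2% lower. Median-of-ratios scaling called the same 4 members and 45.3% of all genes, 23.0% higher and 22.3% lower. Without the third Dot1l-deleted library the 4 were called again, with 38.2% of all genes, 17.1% higher and 21.1% lower. The other 6 members, Rag1, Dntt, Il7r, Igll1, Ebf1 and Cd79a, lay below the filter. A fit with no filter, which covers all 10 members among 20568 genes, called 5 of them, Cd79b higher and Thy1, Rag2, Cd28 and Dntt lower, where 13.2% of all genes were called, 6.52% higher and 6.68% lower. With median-of-ratios scaling that fit called 6 members, Igll1 being the addition, and 30.0% of all genes, 16.7% higher and 13.4% lower. With a pseudocount of 0.1 in place of 1 it called 6, Ebf1 being the addition, and 13.4% of all genes, 6.69% higher and 6.75% lower. With the filter lowered to a mean of 0.1 FPKM, 6 of the 8 members that passed it were called, Dntt and Igll1 being the additions, and 17.7% of all genes, 7.93% higher and 9.72% lower. As deposited, the 3 deleted libraries lay above the 3 controls without overlap for 2 of the 10 members and below them for 6. Among tested genes 10.7% lay above and 34.1% below in this way, and among 4901 genes with a mean between 0.05 and 1 FPKM 19.9% above and 11.7% below. After scaling the members' counts were 2 and 5. Of the 4 members that passed the filter, 1 lay above and 3 below, and the scaled shares of tested genes were not computed. Of the 6 members below the filter, 1 lay above and 2 below, where 24.5% and 9.71% of genes at 0.05 to 1 FPKM did. The plot of the members by library shows the values behind these counts, and the plot of log2 fold changes sets both fits side by side.

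**Figure D1:**
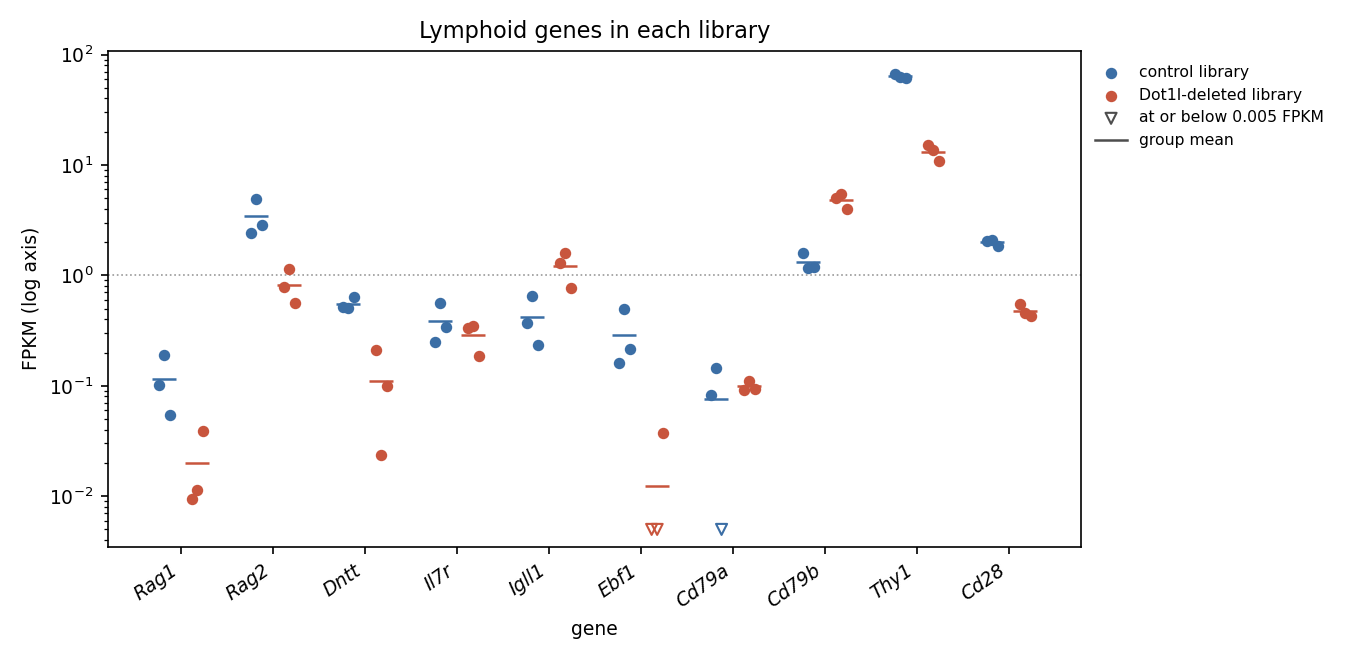
FPKM (log axis) of the 10 lymphoid genes in 3 control (blue) and 3 Dot1l-deleted (red) libraries, with group means as lines, values at or below 0.005 as open triangles and a dotted line at 1 FPKM. Control points lie above all deleted points for Rag1, Rag2, Dntt, Ebf1, Thy1 and Cd28, below them for Igll1 and Cd79b, and among them for Il7r and Cd79a.

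**Figure D2:**
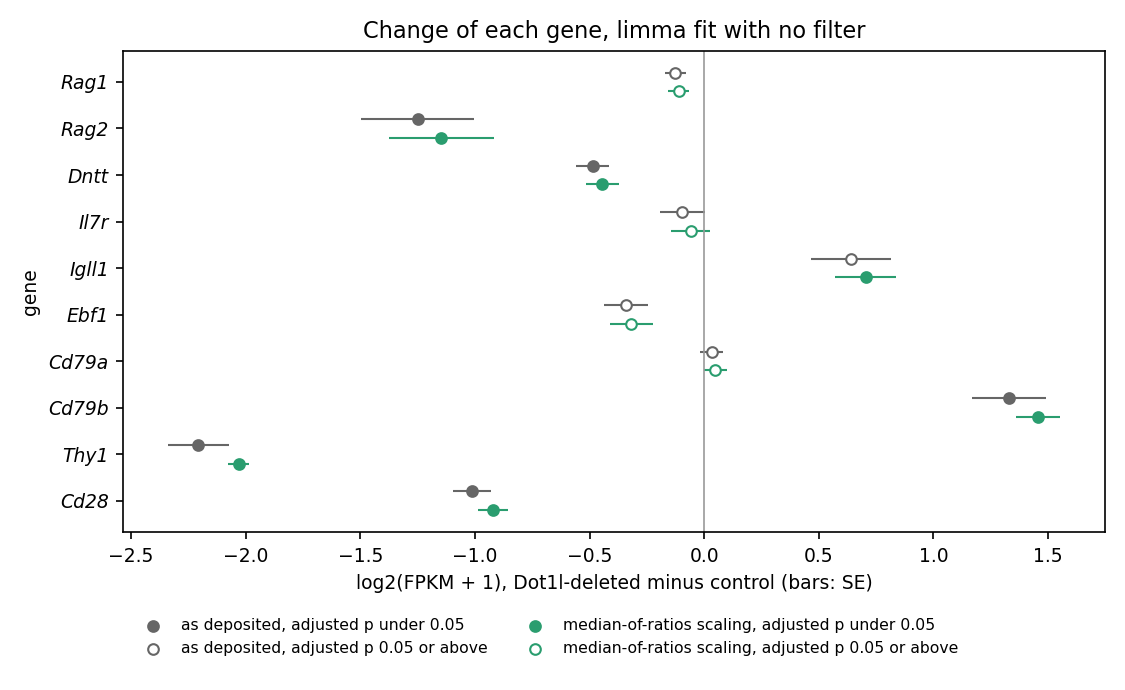
Log2 fold change of each gene (Dot1l-deleted minus control, on log2(FPKM + 1), bars are SE) in the limma fit with no filter, for values as deposited (grey) and after median-of-ratios scaling (green). Filled points have an adjusted p under 0.05: Thy1 at -2.21, Rag2 at -1.25, Cd28 at -1.01, Dntt at -0.49 and Cd79b at 1.33 as deposited, and Igll1 only after scaling, at 0.70.

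Rag2 was at 2.43, 4.96 and 2.88 FPKM in the controls and at 0.781, 1.13 and 0.558 FPKM after deletion. Every deleted library was below every control, the second control being the highest by a wide margin. The mean fell 4.16-fold, and limma gave a log2 fold change of -1.25 with an SE of 0.235 and an adjusted p = 0.00374. Rag2 passed the filter through the controls, where it is high, so that this call adds nothing to its values. With no filter the adjusted p of Rag2 was 0.0264 (limma). Rag1, its partner in the recombinase, was far lower: 0.102, 0.189 and 0.0538 FPKM in the controls and 0.00943, 0.0115 and 0.0388 FPKM after deletion. The groups did not overlap as deposited, but they did after median-of-ratios scaling, and the limma fit with no filter did not call it (log2 difference -0.13, SE 0.0463, adjusted p = 0.151). Per length, Rag2 was at 24.0 to 53.6 times the Rag1 value in the controls and at 14.4 to 98.9 times after deletion, so Rag2 was the higher of the pair in every library. The size of these ratios is uncertain, since they rest on Rag1 values near 0.

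The start regions of both recombinase genes are shown with those of Dntt and Igll1, so that members whose values were lower after deletion stand beside one whose values were higher. The sequences are from RefSeq (build GRCm38.p6, another build than the mm9 of the expression values), whose promoter table held 7 of the 10 members. Each window runs from 250 bases before to 50 bases after the annotated start, on the strand of the gene, as that table places the start. The last 30 bases were found near the start of a GENCODE transcript for 5 of the 8 windows of the members. They were not found for Rag1, Il7r and the second of the 2 windows of Ebf1. Whether the annotations place the start differently there was not tested. Capitals mark matches, on either strand, to motifs named after lymphoid and myeloid factors: the E2A E-box CAGGTG, the palindromic EBF motif, the Ikaros motif TGGGAA, the ETS and PU.1 motif AGGAAG, the RUNX motif TGTGGT and the TATA box TATAAA.
Rag1 (chr2:101649483-101649782, minus strand): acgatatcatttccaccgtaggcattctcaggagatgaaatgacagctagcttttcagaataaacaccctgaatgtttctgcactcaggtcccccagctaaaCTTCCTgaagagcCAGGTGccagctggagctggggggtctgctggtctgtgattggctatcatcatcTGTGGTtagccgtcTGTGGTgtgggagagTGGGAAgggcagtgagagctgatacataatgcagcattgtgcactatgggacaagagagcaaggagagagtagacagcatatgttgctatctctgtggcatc
Rag2 (chr2:101624462-101624761, plus strand): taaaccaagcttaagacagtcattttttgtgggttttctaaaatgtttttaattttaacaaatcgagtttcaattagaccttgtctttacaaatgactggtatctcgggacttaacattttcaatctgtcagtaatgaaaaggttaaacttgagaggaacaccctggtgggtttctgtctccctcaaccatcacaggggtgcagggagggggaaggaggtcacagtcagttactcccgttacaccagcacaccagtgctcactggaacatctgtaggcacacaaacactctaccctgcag
Dntt (chr19:41029025-41029324, plus strand): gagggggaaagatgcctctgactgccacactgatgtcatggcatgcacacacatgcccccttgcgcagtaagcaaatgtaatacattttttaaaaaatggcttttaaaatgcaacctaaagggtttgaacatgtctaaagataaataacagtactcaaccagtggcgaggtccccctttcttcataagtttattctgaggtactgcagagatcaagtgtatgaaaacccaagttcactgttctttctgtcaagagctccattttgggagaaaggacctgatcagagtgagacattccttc
Igll1 (chr16:16863936-16864235, minus strand): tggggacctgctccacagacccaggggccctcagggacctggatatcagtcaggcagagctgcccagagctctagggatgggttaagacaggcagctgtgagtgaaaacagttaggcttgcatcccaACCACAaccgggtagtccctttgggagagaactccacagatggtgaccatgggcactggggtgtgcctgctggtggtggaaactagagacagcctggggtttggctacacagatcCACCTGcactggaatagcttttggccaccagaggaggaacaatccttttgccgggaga

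Rag1 held 5 matches, an inverted ETS and PU.1 motif, an E-box, 2 RUNX motifs and an Ikaros motif, none of them overlapping. Igll1 held 2, an inverted RUNX motif and an inverted E-box that begins at position -8 from the start. Rag2 and Dntt held none of these letters in this window. Of the 7 members with a window, 3 had the E-box, 2 the Ikaros motif, 3 the ETS and PU.1 motif, 4 the RUNX motif, and none the EBF motif or the TATA box. The Ikaros match of Ebf1 was in its second window. Among 32841 promoter windows of the same length the shares were 20.2%, 25.6%, 35.4%, 16.8%, 0.904% and 13.6%. The E-box and the RUNX motif occurred both in Rag1, whose deposited values were lower in all deleted libraries, and in Igll1, whose values were higher. Cd79b, Thy1 and Cd28 had no entry in that table.

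The recombinase genes share their locus with B230118H07Rik, whose exons overlap theirs. In the GENCODE M21 annotation of GRCm38, 208 of 3424 exon bases of Rag2 are covered by an exon of B230118H07Rik on the opposite strand, and 80 of 6608 exon bases of Rag1 by one on the same strand. B230118H07Rik itself was at 40.8, 31.7 and 33.4 FPKM in the controls and at 46.9, 49.4 and 31.8 FPKM after deletion, which did not pass as deposited (log2 fold change 0.25, adjusted p = 0.402, limma) and passed as higher with median-of-ratios scaling (0.43, adjusted p = 0.0117). Rag2 stood at 5.97%, 15.6% and 8.62% of its neighbour's FPKM in the controls and at 1.67%, 2.29% and 1.75% after deletion. The neighbour was above all controls in the first and second deleted libraries, where Rag2 was below all controls. How many reads of the overlap went to each row was not tested, and no label says whether the counting used strand. Of the further genes near the locus, Traf6, a signal adaptor of receptors of innate immunity, was at 14.9 to 16.8 and 10.6 to 13.1 FPKM, with all deleted libraries below all controls (adjusted p = 0.0947, limma). As deposited, 34.1% of all tested genes lay below in this way. With scaling Traf6 did not pass (adjusted p = 0.0829, limma), and its groups overlapped. Without the third Dot1l-deleted library Traf6 passed as lower (adjusted p = 0.0223, limma) and B230118H07Rik as higher (adjusted p = 0.0325, limma). Commd9 was at 18.5 to 18.9 and 16.2 to 21.4 FPKM (adjusted p = 0.939, limma) and passed as higher with scaling (adjusted p = 0.0256, limma). 2600010E01Rik, below the filter, was at 0.825 to 0.927 and 0.513 to 0.688 FPKM.

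**Figure D3:**
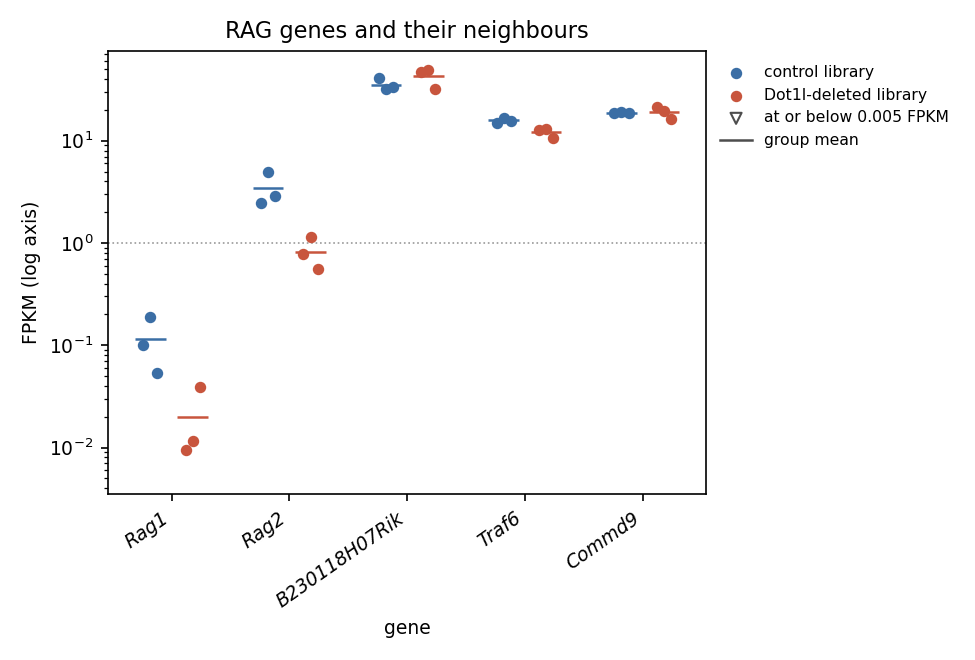
FPKM (log axis) of Rag1, Rag2 and 3 genes near them in 3 control (blue) and 3 Dot1l-deleted (red) libraries, with group means as lines and a dotted line at 1 FPKM. Rag2 lies at 2.43 to 4.96 FPKM in controls and at 0.558 to 1.13 FPKM after deletion, and B230118H07Rik, which overlaps it, lies between 31.7 and 49.4 FPKM.

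Dntt was at 0.518, 0.507 and 0.637 FPKM in the controls and at 0.212, 0.0234 and 0.0989 FPKM after deletion. The controls lay close together and above all deleted libraries. The mean was 4.97-fold lower. The limma fit with no filter called it lower (log2 difference -0.49, SE 0.0726, adjusted p = 0.0103), and so did the same fit with scaling (adjusted p = 0.00715) and with a pseudocount of 0.1 (adjusted p = 0.0309). By an exact permutation test (two-sided) p was 0.1, the lower limit of a design with 3 libraries a group; the low members Rag1, Igll1 and Ebf1 had the same exact p. The files give no fragment counts, and the number of fragments behind such low values was not worked out here. It may be very small, since after deletion Dntt was as low as 0.0234 FPKM and Rag1 as low as 0.00943 FPKM.

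The genes that join the cut ends work in all cells. Of 14 recombination and end joining genes, all tested, 3 fell, none rose and 11 did not pass, with a median log2 fold change of -0.19, near the -0.16 of all tested genes. Trp53bp1, a DNA break response gene, fell 1.57-fold, Atm, the break-sensing kinase gene, 1.64-fold, and Hmgb1, whose product bends DNA for the recombinase, 1.45-fold (adjusted p = 0.0218, 0.0327 and 0.0457, limma). After scaling by median of ratios, 2 rose and 4 fell. For this list and those below, the shares of all tested genes were 7.43% higher and 12.2% lower as deposited. With scaling they were 23.0% and 22.3%.

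Il7r did not pass. It was at 0.248, 0.557 and 0.343 FPKM in the controls and at 0.337, 0.350 and 0.185 FPKM after deletion, and the groups overlapped (log2 fold change -0.10, SE 0.0972, adjusted p = 0.580 with no filter, limma; exact permutation p = 0.5). The other genes of interleukin 7 and TSLP signalling were mostly abundant: of 18, 17 were tested, 6 fell, none rose and 11 did not pass, with a median of -0.31. Bcl2, a survival gene that this receptor induces in lymphocytes, fell from 15.0 ± 0.398 to 4.24 ± 0.627 FPKM (SD, n = 3 each; adjusted p = 1.62e-05, limma). Stat5a, a transcription factor gene activated by the receptor, fell 1.85-fold, and Tslp, encoding a related cytokine, 2.59-fold (adjusted p = 0.00215 and 0.00254, limma). After scaling, 1 rose and 8 fell, where 23.0% and 22.3% of all tested genes did. Il7r itself lay far below its receptor partner in level: Il2rg, the common gamma chain gene, named after its values were seen, was at 55.9 to 59.6 FPKM in controls and 45.1 to 60.2 FPKM after deletion.

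Ebf1 was at 0.162, 0.493 and 0.217 FPKM in the controls, was listed at 0 in the first and second Dot1l-deleted libraries and was at 0.0371 FPKM in the third. The groups did not overlap, and the call depended on the pseudocount: with no filter the adjusted p was 0.0749 at a pseudocount of 1 and 0.0245 at a pseudocount of 0.1 (limma). Of 38 further lymphoid transcription factor genes, 25 were tested, 4 rose, 10 fell and 11 did not pass, with a median of -0.27. Zfp521, a zinc finger gene whose product represses EBF1, fell 4.36-fold, from 12.2 ± 0.277 to 2.79 ± 0.389 FPKM (SD, n = 3 each; adjusted p = 7.47e-06, limma). Erg fell 2.90-fold and Foxp1, a factor gene of early B cells, 2.79-fold (adjusted p = 5e-05 and 0.000152, limma). The genes that rose, named after their values were seen, were Sfpi1, Lyl1, Ets1 and Id2. Ets1, at a mean of 0.684 FPKM in controls, passed the filter through the deleted libraries. Sfpi1, encoding the myeloid and B cell factor PU.1, was at 43.0 to 48.2 FPKM in controls and at 81.9 to 122 FPKM after deletion. After scaling, 7 rose and 11 fell, where 23.0% and 22.3% of all tested genes did.

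Of the 13 factor genes below the filter, 5 were higher in every deleted library than in any control and 1 was lower, where 19.9% and 11.7% of all genes at 0.05 to 1 FPKM were. Some of the 13, such as Pax5 and Pou2af1, had means below 0.05 FPKM, which those shares leave out, so the sets differ. The factor genes that were higher or lower in this way were also named after their values were seen. Gata3, a T lineage factor gene, was at 0.266, 0.170 and 0.184 FPKM in the controls and at 0.767, 0.818 and 0.816 FPKM after deletion. Tcf7, also of the T lineage, was at 0.520 to 0.695 and at 0.852 to 1.11 FPKM. Ikzf3, Bach2 and Pou2f2 of the B lineage were the others that were higher. Lef1 went the other way, from 0.393 to 0.439 FPKM in controls to 0.0697 to 0.123 FPKM. Pax5, the B cell identity factor gene, was listed at 0 in 5 libraries and at 0.0455 FPKM in the third Dot1l-deleted one, and Pou2af1, a B cell coactivator gene named after its values were seen, was listed at 0 in all.

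The parts of the pre-B cell receptor differed from each other. Cd79b was at 1.59, 1.16 and 1.19 FPKM in the controls and at 5.05, 5.49 and 3.96 FPKM after deletion. All deleted libraries lay above all controls, and the mean rose 3.68-fold, a log2 difference of 1.33 in limma (SE 0.171, adjusted p = 0.000305). Cd79a, whose product pairs with CD79B in the receptor, was at 0.0824 and 0.145 FPKM in the first and second controls, listed at 0 in the third, and at 0.0918, 0.112 and 0.0944 FPKM after deletion. Its groups overlapped (log2 fold change 0.03, adjusted p = 0.713 with no filter, limma). After deletion Cd79b was at 42.0 to 55.0 times the FPKM of Cd79a, against 8.03 and 19.3 times in the 2 controls where Cd79a was above 0. Cd79a did not exceed 0.145 FPKM in any library, so these ratios rest on values near 0 and are uncertain.

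Igll1 was at 0.369, 0.648 and 0.234 FPKM in the controls and at 1.30, 1.58 and 0.774 FPKM after deletion. It was higher in all 3 deleted libraries, 2.92-fold on average, and the lowest deleted value was close to the highest control. Its call changed with the settings: adjusted p = 0.0719 with no filter, 0.0386 with a filter at a mean of 0.1 FPKM, and 0.0130 with no filter and median-of-ratios scaling (limma). Vpreb1, whose product completes the surrogate light chain, was at 0.230, 0.203 and 0.146 FPKM in the controls and at 0.128, 0.936 and 0.462 FPKM after deletion, with overlapping groups. Vpreb1 and Vpreb2 are near-identical and can share reads, so their split is uncertain. Igll1 resembles the constant regions of the lambda light chain genes; the 1 lambda row on the lists was listed at 0 in all libraries.

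The row Igh-6, the mu heavy chain gene now named Ighm, was at 21.7, 25.9 and 20.4 FPKM in the controls and at 55.5, 62.6 and 44.7 FPKM after deletion. It rose 2.39-fold, with an adjusted p = 0.000608 in limma. Whether these reads came from a rearranged gene or from unrearranged, so-called sterile, transcripts of the locus was not tested, since the tables give 1 value per gene. Of 26 pre-B receptor and B cell genes with a row, 14 were tested, 3 rose, 1 fell and 10 did not pass, with a median of 0.28. Besides Igh-6, Cd24a, a surface antigen gene of early B and myeloid cells, rose 3.73-fold and Bst1 9.66-fold (adjusted p = 1.25e-05 and 2.7e-05, limma). Bst1, at a mean of 0.533 FPKM in controls, passed the filter through the deleted libraries, where it is high, so that its call adds nothing to its values. The gene that fell was Cd72, a B cell inhibitory receptor gene, named after its values were seen, at 6.76 to 8.12 FPKM in controls and 3.72 to 4.33 FPKM after deletion. After scaling, 9 of the 14 rose and 1 fell, and without the third Dot1l-deleted library 7 rose and 1 fell. The shares of all tested genes were 23.0% higher and 22.3% lower after scaling, and 17.1% and 21.1% without that library. Of the B cell genes 6 were listed at 0 in every library, among them Ms4a1 and Cd22. The B cell markers summed to 20.6 to 26.1 FPKM in controls and 45.2 to 63.5 FPKM after deletion, nearly all of it Igh-6, and 4 of the 7 were at 0.

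**Figure D4:**
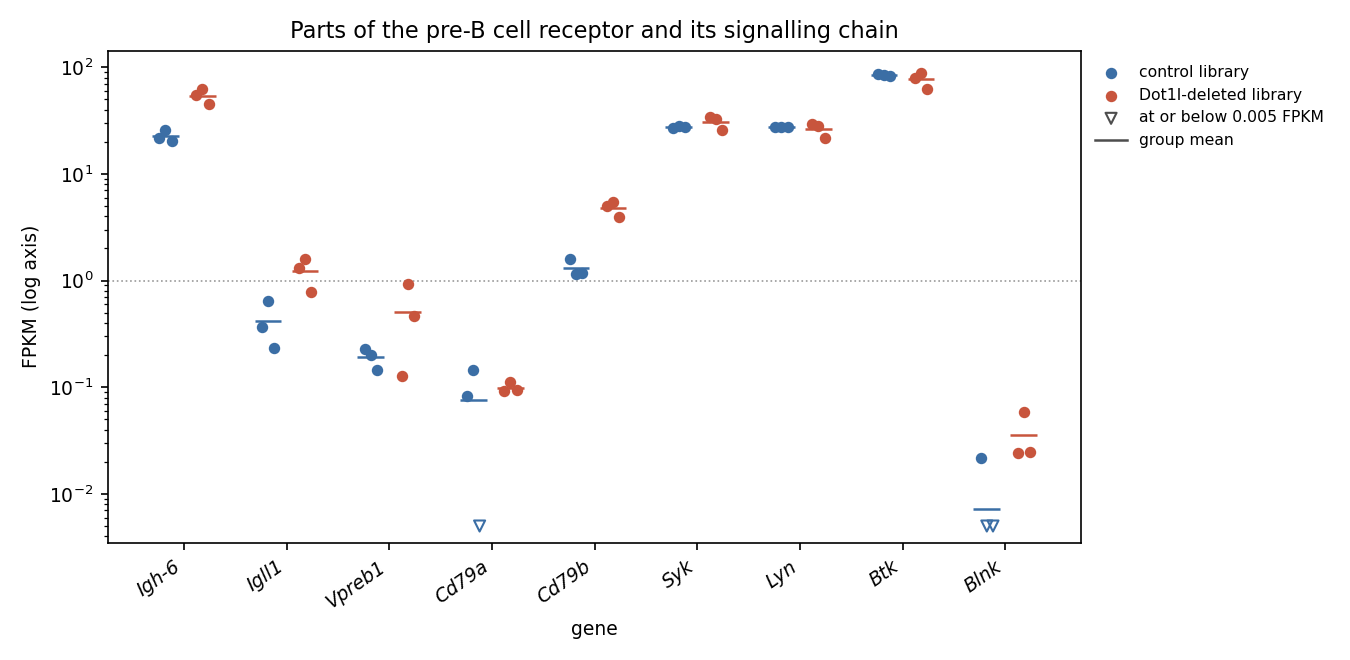
FPKM (log axis) of genes of the pre-B cell receptor (Igh-6, Igll1, Vpreb1, Cd79a, Cd79b) and of its signalling chain (Syk, Lyn, Btk, Blnk), in 3 control (blue) and 3 Dot1l-deleted (red) libraries, with group means as lines and values at or below 0.005 as open triangles. Igh-6, Igll1 and Cd79b are higher in all deleted libraries, and Cd79a is at 0.145 FPKM or less.

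The kinases that carry the receptor signal are also those of myeloid cells. Syk, Lyn and Btk, chosen after their values were seen, were at 25.7 to 34.2, 21.5 to 29.1 and 63.0 to 87.5 FPKM over the 6 libraries, and none passed as deposited; Syk and Lyn passed as higher with scaling (adjusted p = 0.00211 and 0.0402, limma). The adaptor gene Blnk, chosen likewise, did not exceed 0.0582 FPKM in any library.

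Thy1 was the most abundant member in every library. It was at 67.2, 62.5 and 61.4 FPKM in the controls and at 15.0, 13.6 and 10.7 FPKM after deletion, and the groups lay far apart. The mean fell 4.85-fold, and the log2 difference was -2.21 (SE 0.159, limma adjusted p = 5.65e-06). Cd28, the co-stimulatory receptor gene, fell too, at a far lower level: 2.05, 2.07 and 1.83 FPKM in the controls and 0.552, 0.454 and 0.430 FPKM after deletion, 4.14-fold lower (log2 difference -1.01, SE 0.183, limma adjusted p = 0.00290). Cd28 passed the filter through the controls, where it is high, so that this call adds nothing to its values. With no filter the adjusted p of Cd28 was 0.00140 (limma). The ratio of Thy1 to Cd28 was 30.2 to 33.6 in the controls and 25.0 to 30.0 after deletion.

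A ligand gene of CD28 went the other way. Cd80, encoding B7-1, rose from 0.243 ± 0.102 to 2.65 ± 0.482 FPKM (SD, n = 3 each; adjusted p = 0.000289, limma). It passed the filter through the deleted libraries alone, so that its call adds nothing to its values. Icosl, the ligand gene of ICOS, rose 2.20-fold (adjusted p = 0.0133, limma). Of 9 genes of the CD28 family and its ligands, 6 were tested, 2 rose, none fell and 4 did not pass, with a median of -0.02. Icos was at 8.75 ± 1.11 and 6.09 ± 1.01 FPKM (adjusted p = 0.0616, limma) and passed as lower with scaling (adjusted p = 0.0397). Pdcd1, the PD-1 gene, below the filter and named after its values were seen, was at 1.40, 0.307 and 0.618 FPKM in controls and at 0.0208, 0.0506 and 0.0428 FPKM after deletion.

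Genes of the CD3 complex, which defines T cells, were at or near 0 beside Thy1 and Cd28. Of 29 T and NK cell genes 8 were tested, 2 rose, 2 fell and 4 did not pass, with a median of -0.28. Il2ra, the interleukin 2 receptor alpha chain gene, fell from 7.12 ± 0.204 to 1.12 ± 0.373 FPKM (SD, n = 3 each; adjusted p = 1.62e-05, limma). Nkg7 and Gzmb, both of cytotoxic granules, rose 2.23-fold and 2.19-fold (adjusted p = 0.00148 and 0.00378, limma). Cd3e was above 0 only in the third Dot1l-deleted library, at 0.0598 FPKM, and Cd3d only in the deleted libraries, at 0.0537 to 0.183 FPKM. Zap70 was at 1.04 to 1.64 and 0.561 to 0.744 FPKM, and Lck at 4.06 to 5.16 and 3.33 to 4.93 FPKM. The 6 T and NK cell markers summed to 5.10 to 6.41 FPKM in controls and 4.01 to 5.63 FPKM after deletion. Stromal and endothelial cells also carry THY1. Their 5 markers, Col1a1, Col1a2, Col3a1, Pdgfra and Cdh5, summed to 1.04 to 1.45 FPKM in controls and 0.471 to 0.561 FPKM after deletion. The whole list of 14 fibroblast, stromal and endothelial genes summed to 98.7 to 109 FPKM in controls and 92.6 to 125 FPKM after deletion, with Pecam1, an endothelial gene that blood progenitors also express, at 60.4 to 68.0 and 35.4 to 47.7 FPKM (named after its values were seen). The part of such cells in the Thy1 values was not tested. Of the 14 genes 6 were tested, 3 rose and 1 fell, with a median of 0.25; those with the smallest adjusted p were Acta2, Nt5e and Fbn1, which rose 7.40-fold, 4.04-fold and 1.62-fold.

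Surface and early genes of lymphoid-primed progenitors moved in both directions. Of 24 with a row, some of which, such as Cd34 and Kit, stand on another list too, 17 were tested, 8 fell, 5 rose and 4 did not pass, with a median of -0.50. Flt3, the receptor gene of the ligand that expands lymphoid-primed progenitors, fell from 66.5 ± 5.77 to 4.01 ± 0.863 FPKM (SD, n = 3 each; adjusted p = 2.68e-07, limma), Cd27, a co-stimulatory receptor gene, fell 20.4-fold and Cd34 6.10-fold (adjusted p = 2.97e-07 and 4.29e-06, limma). Flt3, Cd27 and Cd34 were named for their small adjusted p, and the 5 genes that rose are not among them. Of the members, Rag2, Thy1, Cd28 and, with no filter, Dntt were lower in the same libraries. Cd79b was called higher, and Igll1 was higher in every deleted library than in any control. The part of a change in cell composition was not tested. Of 16 myeloid progenitor markers 9 rose and 3 fell, with a median of 0.997, where 7.43% and 12.2% of all tested genes did. The neutrophil elastase gene (Ela2, now Elane) rose from 293 to 333 FPKM in controls to 1035 to 1577 FPKM after deletion, and Prtn3 from 132 to 171 FPKM to 865 to 1390 FPKM.

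Plasmacytoid dendritic cells, which share several early lymphoid genes, were read as another possible source. Of 17 of their genes 10 were tested, 5 rose and 3 fell, with a median of 0.62. Ly6c2, which monocytes also express, rose 14.0-fold and Lair1 5.59-fold, while Tcf4, the E protein gene that defines these cells, fell 2.19-fold (adjusted p = 7.34e-07, 7.58e-06 and 0.000934, limma). Siglech, their surface marker gene, was listed at 0 in every library, and Ly6d and Ccr9 were lower in every deleted library than in any control, at 1.54 to 1.90 against 0.526 to 0.639 FPKM and 0.418 to 0.542 against 0.121 to 0.233 FPKM. A further marker of the set, not named here, was higher in every deleted library, at 2.30 to 3.11 against 3.37 to 6.15 FPKM. Spib did not exceed 0.0834 FPKM, and its groups overlapped. Among tested genes 34.1% lay below in this way and 10.7% above, and at 0.05 to 1 FPKM 11.7% and 19.9%. Their 7 markers summed to 86.1 to 100.4 FPKM in controls and 69.6 to 115 FPKM after deletion, mostly from Bst2, an interferon-inducible gene at 60.5 to 104 FPKM over the 6 libraries.

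**Figure D5:**
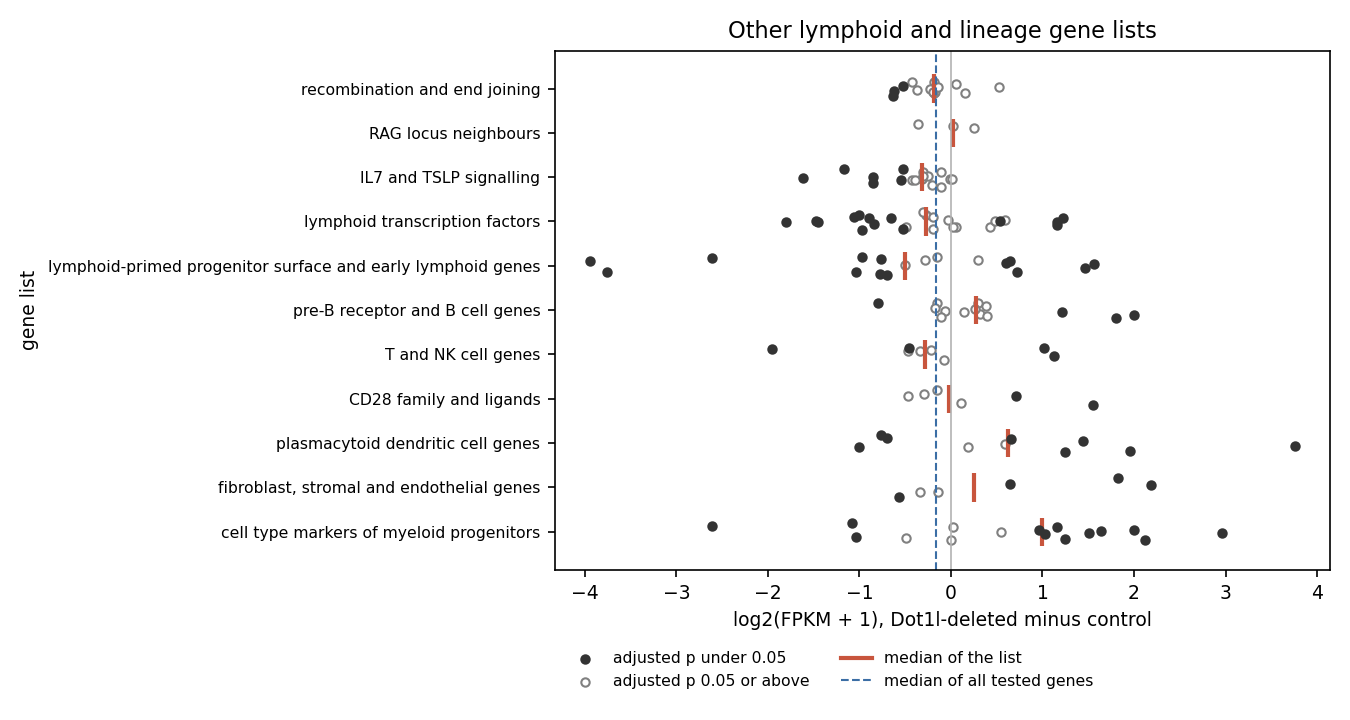
Log2 fold change (Dot1l-deleted minus control, on log2(FPKM + 1)) of each tested gene of 11 lists, filled where the adjusted p is under 0.05, with the median of each list (red bar) and of all tested genes (dashed line, at -0.16). The list medians run from -0.50 for lymphoid-primed progenitor surface genes to 0.997 for myeloid progenitor markers.

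The order of the members changed with the deletion. In controls Thy1 was followed by Rag2, Cd28 and Cd79b, each without overlap between neighbours; Dntt, Igll1, Il7r and Ebf1 came next with overlapping values, and Rag1 and Cd79a were lowest by their means, Rag1 overlapping Ebf1 and Cd79a. After deletion Thy1 was followed by Cd79b, then by Igll1, Rag2, Cd28 and Il7r, of which only Igll1 and Rag2 overlapped. Dntt overlapped Il7r, Cd79a, Rag1 and Ebf1, and Rag1 and Ebf1, which overlapped each other, had the lowest means.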

How the data were processed

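RNA was sequenced from 3 control and 3 Dot1l-deleted libraries, grouped by their titles. The authors deposited 1 FPKM value per Ensembl gene and library; per the labels' protocols the kit was stranded. The submitters' processing notes list build mm9 and Cuffdiff, SAMtools, GSNAP and CASAVA (version 1.8.2), with their roles, order and use of strand not given in the sources used here. Rows with the placeholder 999999999 in any library (378) were dropped, leaving 31248. FPKM holds no counts; the step sizes of small RNA genes put the other libraries at 0.740 to 0.898 of the depth of the first control, from 30 to 48 of 184 to 198 genes that matched within 0.02 on the log2 scale, so approximate.

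The test was limma (version 3.58.1, R 4.3.3; lmFit, then eBayes with trend) for genes with a mean of at least 1 FPKM, on log2(FPKM + 1), two-sided, with Benjamini-Hochberg adjustment over all tested genes and a threshold of 0.05; this scale understates the change of low genes. A plain fold is the ratio of the groups' mean FPKM. The fit was tested on simulated data with independent noise per gene and no shift of a whole library. That test therefore does not cover the third Dot1l-deleted library, whose median log2 deviation was -0.366. The main fit did not pair libraries by replicate number, since no label says what a number marks (see the closing section). Alternatives covered the pseudocount, filter, scaling, variance trend, sample weights, replicate block and each library left out; no filter with median-of-ratios scaling was added after seeing the data. Named genes were the members, Dot1l, the RAG locus and cell type markers, and up to 3 tested genes per other list with the smallest adjusted p. The members and the 11 lists (215 names, 209 rows) were chosen with earlier results of these data known. A planned motif search in the members' proteins was not done here. 1 listed gene is not reported by name here. List names were matched to the deposited symbols first, without a check that an older symbol, such as Tcf3, marks the same gene today. The Tcf3 row, counted among the 13 factor genes below the filter, may therefore be another gene than the E2A gene. Names without a deposited symbol were matched by Ensembl identifier.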

Additional observations from a re-analysis of the deposited data

How the results depend on the processing

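The 4 members that passed the filter were called in the same direction under every alternative run, and so was Dot1l (log2 fold change -1.49 to -1.06). Rag2 and Cd28 passed that filter through the controls, where they are high, so their calls in fits with it add nothing to their values. The number of genes called over the whole table moved from 2345 to 5401 with median-of-ratios scaling, to 5608 with quantile normalization, to 5716 with sample weights, to 4559 with scaling and the third Dot1l-deleted library left out, and to 6180 with no filter and scaling; with 1 library left out it ran from 1819 to 4558, the highest without the third Dot1l-deleted one. The genes called over the 11 lists moved from 65 to 103 with no filter and scaling. Called members numbered 4 to 6, the larger counts adding Dntt with no filter, Dntt and Igll1 with a filter at 0.1 FPKM or with no filter and scaling, and Dntt and Ebf1 with no filter and a pseudocount of 0.1. No label says that a replicate number marks a shared animal or day. Deviations of same-numbered libraries correlated at -0.0301, -0.0377 and 0.0128. With 3 libraries a group these values cannot decide whether the numbers pair them, which stays unknown. The replicate block gave 2953 genes and the same 4 members. No control correlated best with the deleted library of its own number. Values under 1 FPKM limit what can be said of Rag1, Dntt, Il7r, Igll1, Ebf1 and Cd79a: a pseudocount of 0.1 in place of 1 moved all 6 log2 differences by more than the spread between libraries (Ebf1 from -0.34 to -1.72, Igll1 from 0.64 to 1.38).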
